A study of Rattus norvegicus with 8 samples.

Results

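Transcripts for the nuclear-encoded subunits of respiratory complexes II, III, IV and V, with cytochrome c, were compared between rats of high (HI) and low (LI) motor impulsivity. The rows were chosen by name: Sdha to Sdhd, every symbol that begins with Uqcr, Cox4 to Cox8 or Atp5, and Cyc1 and Cycs. Of 47 such rows among 17168 genes, 44 had a mean expected count of 10 or more over the 8 libraries, and all 44 passed the low-count filter of the test. Of these, 42 encode subunits or cytochrome c, 4 in complex II, 9 in complex III, 1 for cytochrome c, 13 in complex IV and 15 in complex V. Atp5s and Atp5sl were taken by their letters only and encode no subunit of complex V. The 3 rows under the minimum were Cox8b, the muscle form of subunit 8, with a mean of 1.38 counts, and Cox8c and the pseudogene Cox6c-ps1, both without a count. Just inside the minimum were Cox6b2 with a mean of 12.5 counts, Cox6a2 with 15.8 and Cox4i2 with 16.4.

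The RNA came from homogenised medial prefrontal cortex of male Sprague-Dawley rats, with 4 libraries from HI rats (HI1 to HI4) and 4 from LI rats (LI1 to LI4). HI animals scored in the top quartile, and LI animals in the bottom quartile, for premature responses in the one-choice serial reaction time task (1-CSRT), a test of withholding a nose poke until a cue. No drug or genetic change is named in the labels, and no age, litter or batch is given. The labels do not state that each library is a separate animal, so the p-values measure the spread between these libraries.

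The respiratory chain of the inner mitochondrial membrane passes electrons to oxygen and pumps protons, and ATP synthase uses the proton gradient to make ATP. Complex II (succinate dehydrogenase) feeds electrons from succinate to ubiquinone, complex III passes them to cytochrome c, complex IV (cytochrome c oxidase) reduces oxygen, and complex V is the ATP synthase. Cortical neurons draw most of their ATP from this pathway, much of it for ion pumping and synaptic transmission. Some subunits of complexes III, IV and V are encoded by mitochondrial DNA and were not analysed here. Separately, Cox6b1 and Cox7a1 fit the naming rule but had no row, so complex IV was described without them.

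RefSeq promoter windows (GRCr8) were found for 34 of the 42 subunit genes, as the 250 bases before the start. Motifs of factors known for nuclear control of respiratory genes were searched on both strands. The ETS motif CCGGAAG, bound by GABPA (also called NRF2), was in 12 of the 34 windows, or 35.3%, against 7.71% of all 27457 promoter windows. The NRF1 consensus motif was in 5, or 14.7%, against 4.11%, and the YY1 consensus motif was in 0 of the 34 and in 0.262% of all windows. The windows of all genes were not limited to genes tested here, and shares among tested genes were not computed. The 3 windows shown belong to genes whose transcripts varied in different ways across the libraries, and no motif overlaps another in them. Uqcrh and Cox8a share the ETS motif but went opposite ways in HI4 and LI3, and Sdha, with the NRF1 motif, had the smallest SE of the 42 genes. They lie at chr5:134790883-134791132 (minus strand), chr1:213833624-213833873 (minus strand) and chr1:30764303-30764552 (plus strand), and capitals mark the motifs.
Uqcrh: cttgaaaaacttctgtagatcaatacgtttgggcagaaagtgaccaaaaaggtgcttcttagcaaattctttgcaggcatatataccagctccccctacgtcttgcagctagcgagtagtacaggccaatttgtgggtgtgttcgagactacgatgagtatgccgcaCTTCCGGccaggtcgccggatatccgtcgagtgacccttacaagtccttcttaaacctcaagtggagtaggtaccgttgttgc
Cox8a: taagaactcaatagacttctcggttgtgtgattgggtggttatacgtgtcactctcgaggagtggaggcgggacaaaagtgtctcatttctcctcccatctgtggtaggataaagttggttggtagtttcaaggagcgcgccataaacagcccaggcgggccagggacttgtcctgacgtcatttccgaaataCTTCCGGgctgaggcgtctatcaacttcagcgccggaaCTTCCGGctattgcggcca
Sdha: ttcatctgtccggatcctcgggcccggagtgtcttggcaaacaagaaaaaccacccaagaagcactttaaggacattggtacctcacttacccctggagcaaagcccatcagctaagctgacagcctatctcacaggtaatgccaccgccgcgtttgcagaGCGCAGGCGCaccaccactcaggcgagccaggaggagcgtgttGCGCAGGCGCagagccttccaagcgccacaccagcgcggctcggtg

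Library totals ran from 7354416 to 9476656 counts. Ribosomal RNA took 0.406% to 25.5% of counts and was lowest in HI4 (0.406%) and LI3 (0.418%), which also stood apart on the first principal component of log2 CPM (51.0 and 34.6, against -25.9 to 2.05 in the other 6). All 5 neuron markers listed (Snap25, Rbfox3, Slc17a7, Syt1 and Gad1) were present, and their summed level was 10114 CPM in HI4 and 8478 CPM in LI3, against 4545 to 6522 CPM elsewhere. HI4 and LI3 also had the highest astrocyte marker sums, 2032 and 1861 CPM against 1424 to 1794 CPM. Their endothelial marker sums were the lowest, 77.5 and 79.1 CPM against 101 to 127 CPM. The 5 microglia markers summed to 186 to 223 CPM in HI and 232 to 248 CPM in LI, with no overlap. LI2 had the highest oligodendrocyte sum, 5902 CPM against 1503 to 3136 CPM in the other 7, and the highest striatal neuron sum, 659 CPM against 258 to 305 CPM. HI1 had the highest meningeal fibroblast sum, 431 CPM against 14.7 to 122 CPM, and the highest red cell sum, 577 CPM against 165 to 331 CPM. In homogenate, fewer cells of a type and less RNA per cell cannot be told apart, and the part of these differences in the results was not tested. CPM are counts scaled to the TMM-adjusted library size, fold changes are log2 HI minus LI with their SE (written after ±), and levels between genes are compared in the deposited TPM, which is per length.

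Over all tested genes, edgeR's quasi-likelihood test called 0 of 11631 at the threshold of 0.1 on the adjusted p (0%), and so 0 of the 44 members. By that test 484 genes had an unadjusted p under 0.05, and DESeq2 called 38 genes (0.327%), none of them a member (30 with no low-count filter). Fisher's exact test on counts summed per group, which ignores the spread between libraries, called 56.7% of genes and 40 of the members. It used raw totals with ribosomal RNA included and no TMM scaling, and its median fold change over all tested genes was -0.11. The smallest adjusted p of any gene was 1.00 by edgeR. Most subunit transcripts had slightly lower values in HI: 40 of 42 had a negative fold change, against 51.5% of all tested genes, with a median of -0.16 against -0.0069. The median SE of a single subunit was 0.18, larger than that median difference. A single gene's SE does not measure the error of a median over the 42. Summed over the 42 genes the level was 6643, 6776, 6468 and 5193 CPM in HI1 to HI4 and 7567, 7128, 6168 and 6414 CPM in LI1 to LI4. The HI mean was 6270 ± 729 CPM and the LI mean 6819 ± 644 CPM (SD over 4 libraries), and the groups overlapped. HI4 was the lowest of the 8 libraries and LI1 the highest. Without HI4 the median over the 42 was -0.061, with 32 negative, and without LI1 it was -0.089, with 38 negative. Without both HI4 and LI3, an alternative chosen after seeing the data, it was -0.12, with 40 negative, against 53.8% of all genes.

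Whether members passed the threshold by edgeR turned on how a covariate for ribosomal RNA was coded. With the share of ribosomal RNA as a linear covariate, edgeR's quasi-likelihood test called 0 genes, and the median over the 42 was -0.23, with 36 negative. With log2 of the share instead, an alternative chosen after seeing the data, it called 440 genes and 8 members, all 8 lower in HI, against 1.01% of tested genes called lower. The 8 were Uqcr11 and Cyc1 of complex III, Cox4i1 and Cox7c of complex IV, and Atp5e, Atp5g3, Atp5l and Atp5o of complex V. Cox4i1 had a fold change of -0.42 ± 0.093 in that fit (adjusted p = 0.072 by edgeR) and Uqcr11 one of -0.49 ± 0.13 (adjusted p = 0.091 by edgeR). The linear covariate gave them nearly the same sizes, -0.42 and -0.45, with adjusted p of 0.70 and 0.72 by edgeR. The 8 calls fell to 0 without HI2, HI3, HI4, LI1, LI3 or LI4, to 4 without LI2, and to 0 with the length trend removed, and were 13 without HI1.

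**Figure D1:**
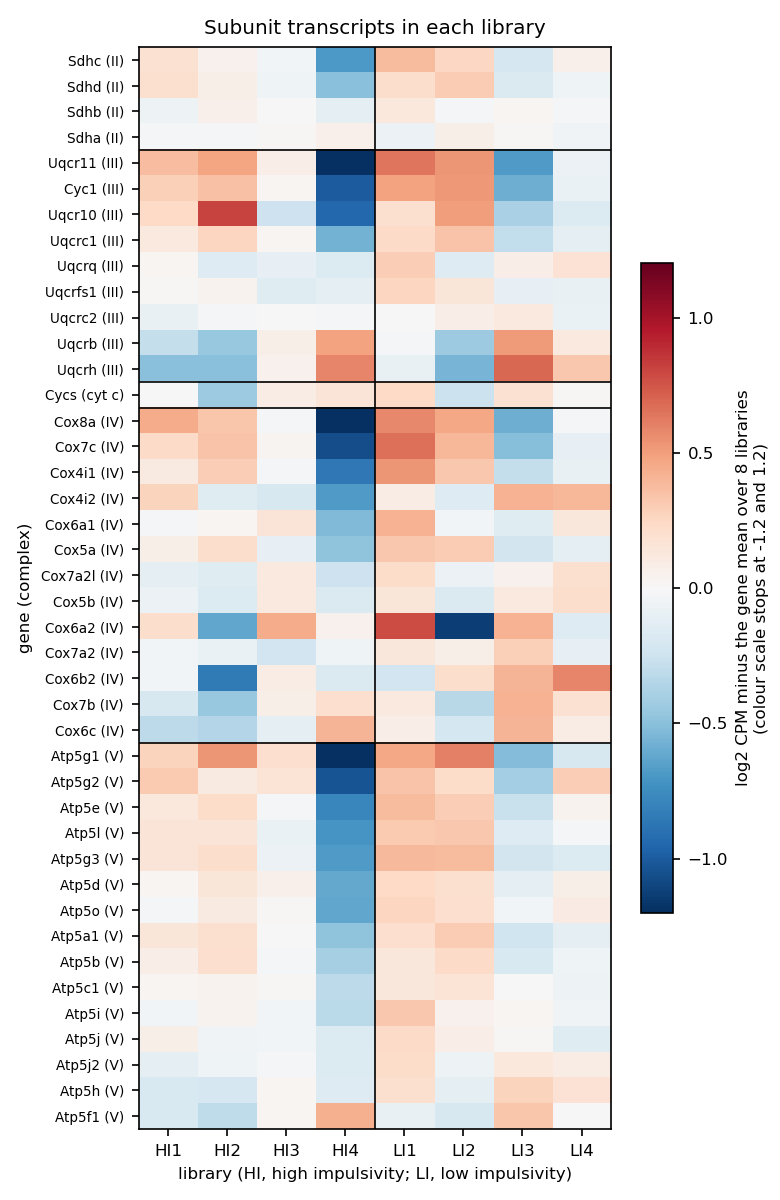
Deviation of log2 CPM from each gene's average across libraries (colour) for 42 genes (rows, by complex) in the 4 HI and 4 LI libraries (columns). In HI4 and LI3, Uqcr11, Cyc1, Cox8a and Atp5g1 are low while Uqcrh, Uqcrb, Cox6c and Atp5f1 are high.

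Complex II transcripts differed from each other in how much they varied. Sdha, the flavoprotein that oxidises succinate, stood at 283, 283, 292 and 301 CPM in HI1 to HI4 and 274, 302, 291 and 279 CPM in LI1 to LI4. The groups overlapped fully, and the fold change was 0.016 ± 0.089. Sdhb, the iron-sulphur subunit, stood at 97.2, 105, 101 and 93.8 CPM in HI1 to HI4 and 110.24, 99.8, 103 and 100.12 CPM in LI1 to LI4, a fold change of -0.058 ± 0.093. The membrane anchors varied more than either. Sdhc stood at 91.2, 83.3, 78.4 and 49.8 CPM in HI1 to HI4 and 104, 95.4, 69.7 and 83.6 CPM in LI1 to LI4, a fold change of -0.22 ± 0.19 that was -0.076 without HI4. Sdhd stood at 84.3, 77.0, 70.8 and 52.0 CPM in HI1 to HI4 and 85.4, 90.7, 65.2 and 70.8 CPM in LI1 to LI4, a fold change of -0.13 ± 0.17 that was -0.022 without HI4. HI4 and LI3 were the lowest of the 8 libraries in both anchors. In Sdhb HI4 was lowest but LI3 was not among the lower libraries, and in Sdha neither was. The fold change of Sdha took the other sign at -0.013 without HI4, -0.012 without LI1 and -0.0027 without LI4. Per length, Sdha (270.39 TPM, median of 8 libraries) and Sdhb (239) were above Sdhc (161) and Sdhd (133). The complex median fold change was -0.096.

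In complex III, 8 of 9 subunits had a negative fold change, with a median of -0.11. The core proteins Uqcrc1 and Uqcrc2, which hold the complex's matrix side, differed in spread. Uqcrc2 stood at 203, 212, 214 and 213 CPM in HI1 to HI4 and 216, 228, 234 and 203 CPM in LI1 to LI4, a fold change of -0.066 ± 0.092, and Uqcrc1 ran from 107 CPM in HI4 to 201 CPM in LI2, a fold change of -0.075 ± 0.20. Uqcrfs1, the Rieske iron-sulphur protein that takes electrons from ubiquinol, stood at 103, 105, 92.0 and 94.2 CPM in HI1 to HI4 and 122, 113, 95.1 and 95.9 CPM in LI1 to LI4. Its fold change was -0.11 ± 0.12, and the groups overlapped. Uqcrq, a small subunit, had the smallest p of the complex and stood at 82.6, 72.9, 75.8 and 72.1 CPM in HI1 to HI4 and 99.5, 72.9, 85.6 and 91.5 CPM in LI1 to LI4. HI2 and HI4 lay just below LI2, the lowest LI library, HI1 and HI3 lay above it, and the fold change was -0.20 ± 0.12 (unadjusted p = 0.116 by edgeR).

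Small subunits of complex III went opposite ways within the same library. Uqcr11, with the highest level per length in the complex (732 TPM), stood at 153, 165, 125 and 46.1 CPM in HI1 to HI4 and 185, 171, 73.8 and 112 CPM in LI1 to LI4. Uqcrh, the hinge protein that helps cytochrome c1 meet cytochrome c, stood at 84.0, 83.8, 124 and 178 CPM in HI1 to HI4 and 112, 80.8, 192 and 149 CPM in LI1 to LI4. HI4 and LI3 were thus the lowest libraries for Uqcr11 and the highest for Uqcrh. The ratio of Uqcrh to Uqcr11 counts was 3.87 in HI4 and 2.60 in LI3, against 0.471 to 1.32 in the other 6. Cyc1, cytochrome c1, followed Uqcr11, and Uqcrb followed Uqcrh. These 4 genes had fold changes of -0.15 ± 0.39, -0.18 ± 0.30, -0.14 ± 0.31 and -0.086 ± 0.24 in the order named. The sign turned for each: Uqcr11 was at 0.11 without HI4 and 0.030 without LI1, Uqcrh at 0.042 without LI3, Cyc1 at 0.068 without HI4 and Uqcrb at 0.040 without HI2 and 0.088 without LI3. Uqcr10 has a deposited length of only 180 bases and 25 to 76 counts per library. Its fold change of 0.016 ± 0.36 went to -0.046 without HI1, -0.32 without HI2, -0.12 without LI3 and -0.066 without LI4, and to 0.23 without HI4. Uqcrc1 went to 0.062 without HI4 and 0.021 without LI2. Uqcrh, Uqcrb, Cyc1, Uqcrc1 and, further on, Cox6c, Cox7b, Cox7c and Atp5f1 were singled out after their values were seen.

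Cycs, cytochrome c itself, which carries electrons from complex III to complex IV, stood at 190.14, 140.02, 201 and 211 CPM in HI1 to HI4 and 224, 158, 215 and 191 CPM in LI1 to LI4. HI2 and LI2 were lowest within their groups, and the groups overlapped. The fold change was -0.086 ± 0.16, and 0.028 without HI2.

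All 13 complex IV rows tested had a negative fold change, with a median of -0.19, and 9 of 13 had one with each library's length trend removed. Cox4i1, the common form of the regulatory subunit 4, stood at 342, 389, 314 and 175 CPM in HI1 to HI4 and 459, 396, 259.95 and 299 CPM in LI1 to LI4. HI4 was the lowest of the 8 libraries and LI1 the highest, and the fold change was -0.21 ± 0.25, or -0.031 without HI4. Cox6a1, the common form of subunit 6A, had the highest level per length of all members (1379.7 TPM). It stood at 285, 292, 319 and 199 CPM in HI1 to HI4 and 384, 280.01, 259.70 and 315 CPM in LI1 to LI4, a fold change of -0.18 ± 0.17 that was -0.063 without HI4. Cox7a2, the common form of subunit 7A, had the smallest p of the complex and stood at 88.8, 85.6, 77.3 and 87.7 CPM in HI1 to HI4 and 100.04, 95.1, 111 and 84.6 CPM in LI1 to LI4. Its groups met at LI4, which lay below 3 of the 4 HI libraries, and the fold change was -0.20 ± 0.11 (unadjusted p = 0.102 by edgeR). Cox7a2l, a 7A-related protein that joins complexes III and IV into supercomplexes, stood at 143, 139.52, 168 and 129.64 CPM in HI1 to HI4 and 179, 147, 160.03 and 176 CPM in LI1 to LI4. HI3 exceeded LI2 and LI3, and the fold change was -0.19 ± 0.12.

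The opposite pattern in HI4 and LI3 was also present among complex IV subunits. Cox8a, the common subunit 8, stood at 247, 229, 178 and 79.3 CPM in HI1 to HI4 and 271, 249.98, 120.47 and 179 CPM in LI1 to LI4, and Cox6c stood at 128, 125, 147 and 211 CPM in HI1 to HI4 and 169, 137, 212 and 169 CPM in LI1 to LI4. The Cox6c to Cox8a ratio was 2.66 in HI4 and 1.76 in LI3, against 0.517 to 0.942 elsewhere. Cox7c followed Cox8a, and Cox7b followed Cox6c. Fold changes were -0.16 ± 0.35 for Cox8a (0.078 without HI4), -0.20 ± 0.32 for Cox7c (0.018), -0.17 ± 0.19 for Cox6c (-0.38) and -0.19 ± 0.18 for Cox7b (-0.30). Without LI3, Cox6c was at -0.054 and Cox7b at -0.081. Cox5a and Cox5b, which sit on the matrix side, differed by -0.15 ± 0.18 and -0.15 ± 0.12.

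Tissue-restricted isoforms of complex IV were near the detection limit. Cox4i2, the alternative subunit 4, was at 6.30 TPM against 1167 for Cox4i1. Cox6a2, the heart and muscle form of subunit 6A, was at 11.5 TPM against 1379.7 for Cox6a1, and Cox6b2, the testis form of subunit 6B, was at 8.25 TPM. Their counts were few: Cox4i2 had 22, 10, 15 and 8 across HI1 to HI4, and 19, 13, 20 and 24 across LI1 to LI4. Cox6a2 had 19, 6, 22 and 13 across HI1 to HI4, and 29, 5, 18 and 14 across LI1 to LI4. Cox6b2 had 13, 4, 14 and 9 across HI1 to HI4, and 11, 13, 15 and 21 across LI1 to LI4. The groups overlapped in all 3, and the fold changes, -0.38 ± 0.31, -0.060 ± 0.45 and -0.52 ± 0.34, had wide errors, that of Cox6a2 the widest of the 42 genes. That of Cox6a2 was 0.11 without HI2, 0.28 without LI1 and 0.043 without LI3, and -0.34 without LI2, while Cox4i2 was -0.59 without HI1 and -0.24 without HI4. The 5 muscle markers listed summed to 22.6 to 25.8 CPM in HI and 24.0 to 27.6 CPM in LI.

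Complex V is built from a catalytic F1 head, a peripheral stalk and a membrane part with a rotating ring of c subunits, and all 15 genes had a negative fold change, with a median of -0.17, and 10 of 15 had one with the length trend removed. In the head, Atp5b, the catalytic beta subunit, was the most abundant member by counts and stood at 1094, 1189.9, 1023 and 781 CPM in HI1 to HI4 and 1138, 1210.1, 908 and 995 CPM in LI1 to LI4. HI4 and LI3 were lowest, and the fold change was -0.056 ± 0.15, with 0.043 without HI4 and 0.0013 without LI2. The other head subunits (Atp5a1, Atp5c1, Atp5d and Atp5e) ran from -0.066 ± 0.17 to -0.20 ± 0.22. The head's median was -0.11.

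The stalk held the subunit with the smallest p of all members. Atp5h, stalk subunit d, stood at 74.3, 73.2, 85.3 and 75.5 CPM in HI1 to HI4 and 96.0, 77.7, 102 and 94.7 CPM in LI1 to LI4. LI2 lay inside the HI range and the other 3 LI libraries above it, and the fold change was -0.26 ± 0.11 (unadjusted p = 0.0455 by edgeR). It was the only member with an unadjusted p under 0.05 and a lower value in HI, 1 of 44 against 1.09% of tested genes, and 0 of 44 had one with a higher value, against 3.07%. Atp5o, the oligomycin-sensitivity protein that joins stalk and head, stood at 134, 147, 138 and 88.8 CPM in HI1 to HI4 and 163, 157, 134 and 146 CPM in LI1 to LI4. HI4 was far below the other 7 libraries, and its fold change was -0.24 ± 0.16, or -0.11 without HI4. Atp5f1, stalk subunit b (current symbol Atp5pb), went the other way in the libraries that stand apart and stood at 178, 164, 206 and 273 CPM in HI1 to HI4 and 190.40, 177, 254 and 201 CPM in LI1 to LI4. Its fold change was -0.0034 ± 0.18, with -0.18 without HI4 and 0.058 without HI1, 0.094 without HI2 and 0.11 without LI3.

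The c-ring genes Atp5g1, Atp5g2 and Atp5g3 encode the same mature protein with different import sequences. Atp5g1 stood at 69.4, 83.2, 66.3 and 22.4 CPM in HI1 to HI4 and 79.4, 87.7, 40.2 and 50.5 CPM in LI1 to LI4, and Atp5g2 at 115, 99.2, 104 and 45.0 CPM in HI1 to HI4 and 117, 108, 69.3 and 113 CPM in LI1 to LI4. Atp5g3 stood at 130.07, 136, 111 and 72.9 CPM in HI1 to HI4 and 153, 152, 100.31 and 104 CPM in LI1 to LI4. All 3 were lowest in HI4 and next lowest in LI3, and the ratio of Atp5f1 to Atp5g1 counts was 12.2 in HI4 and 6.33 in LI3 against 1.97 to 3.99 in the other 6. Fold changes were -0.097 ± 0.37, -0.17 ± 0.27 and -0.18 ± 0.22, and without HI4 0.17, 0.045 and -0.029. Atp5g1 was also 0.014 without LI1 and 0.075 without LI2. Among the small membrane subunits, which hold synthase dimers together, Atp5j2 stood at 101, 106, 109 and 98.2 CPM in HI1 to HI4 and 128, 105, 120.09 and 117 CPM in LI1 to LI4. Only LI2 among LI libraries lay within the HI range, and the fold change was -0.18 ± 0.10. Atp5l and Atp5i differed by -0.21 ± 0.20 and -0.18 ± 0.13.

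The rows that encode no complex V subunit were Atp5s and Atp5sl (current symbols Dmac2l and Dmac2). Atp5sl stood at 57.9, 56.0, 58.6 and 51.6 CPM in HI1 to HI4 and 61.7, 59.4, 63.7 and 59.3 CPM in LI1 to LI4, and was the only member whose HI libraries all lay below its LI libraries, 1 of 44 against 1.14% of tested genes. Its fold change was -0.12 ± 0.097, and that of Atp5s was -0.046 ± 0.19, with 0.021 without HI3, 0.00052 without HI4 and 0.065 without LI1.

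**Figure D2:**
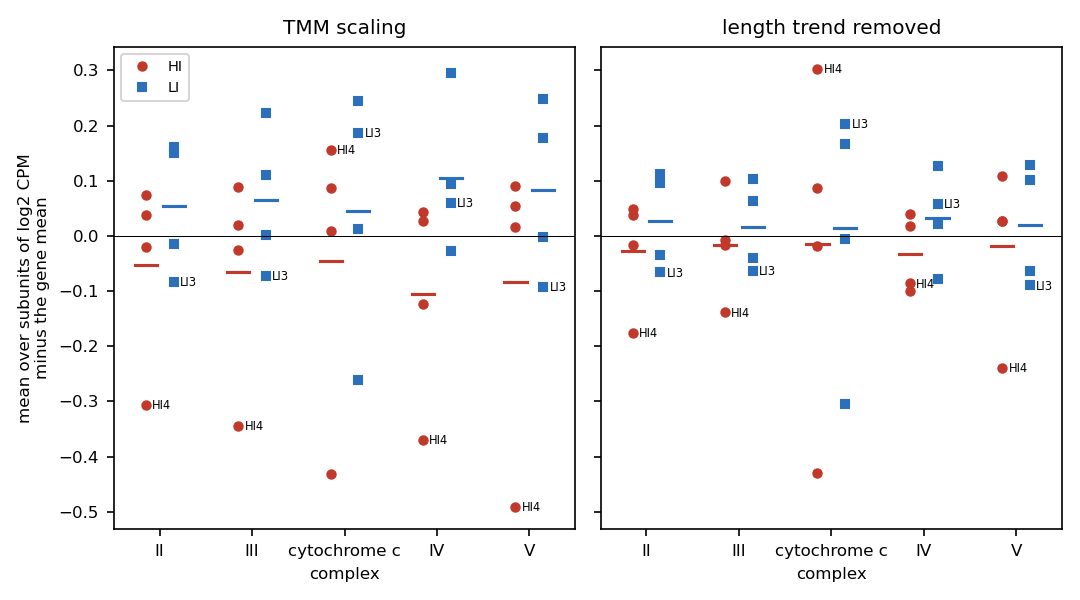
Score of each complex in each library, the mean over its genes of log2 CPM minus the gene mean (points), with group means (lines), under TMM scaling (left) and with the length trend removed (right). HI4 is the lowest library for complexes II to V on the left, at -0.49 in complex V. On the right it is lowest for complexes II, III and V, at -0.24 in complex V, and HI2 is lowest for complex IV.

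Scores summarise a complex as the mean over its genes of log2 CPM minus the gene mean. For complex V they were 0.055, 0.090, 0.015 and -0.49 for HI1 to HI4, against 0.25, 0.18, -0.093 and -0.0025 for LI1 to LI4. For complex IV they were 0.044, -0.12, 0.026 and -0.37 for HI1 to HI4, against 0.30, -0.027, 0.059 and 0.094 for LI1 to LI4. HI4 was lowest in both. Group means with SD were -0.083 ± 0.27 in HI and 0.083 ± 0.16 in LI for complex V, and -0.11 ± 0.19 and 0.11 ± 0.14 for complex IV (n = 4 each). The groups overlapped in both complexes.

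HI4 and LI3 differed from their groups together across the members, but not by the same size or in the same direction in each. HI4 and LI3 were the lowest 2 of the 8 libraries in 20 of 42 genes, against 22.3% of all tested genes, and the highest 2 in 5, against 19.9%. The 20 were 2 of 4 in complex II, 4 of 9 in III, 5 of 13 in IV and 9 of 15 in V. The difference of HI4 from the other HI libraries ran from -1.69 (Atp5g1) to 0.90 (Uqcrh) in log2 CPM, and that of LI3 from the other LI libraries from -1.05 (Uqcr11) to 0.80 (Uqcrh). Across the 42 genes these differences had a Pearson r of 0.94, against 0.78 across all 11631 tested genes. Across the 33 complex I subunits r was also 0.94, so the high value was not particular to complexes II to V. These r values are given as a description since genes are not independent. HI4 and LI3 share a low ribosomal RNA content, high neuron and astrocyte marker sums and a low endothelial marker sum. The part of each was not tested. Without both libraries the median SE of the 42 genes went from 0.18 to 0.13, and that of Uqcr11 from 0.39 to 0.18. The 2 libraries were picked because they stood apart, which by itself tends to lower the SE without them, so no conclusion is drawn from the fall. Fold changes without both were -0.091 ± 0.18 for Uqcr11, -0.24 ± 0.23 for Uqcrh, -0.11 ± 0.17 for Cox8a, -0.26 ± 0.12 for Cox6c and -0.21 ± 0.12 for Atp5h. None passed the adjusted threshold, and the smallest unadjusted p of the 42 was 0.0626 (Cox6c, by edgeR).

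**Figure D3:**
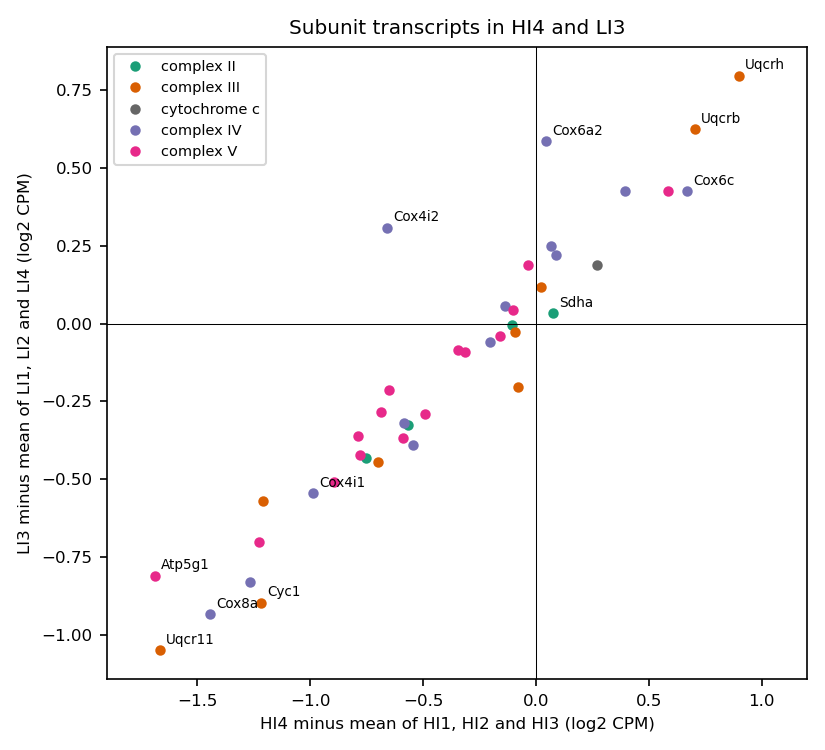
For each of 42 genes (points, coloured by complex), log2 CPM in HI4 minus the mean of HI1 to HI3 (x axis) against log2 CPM in LI3 minus the mean of LI1, LI2 and LI4 (y axis). Genes lie along a rising line from Atp5g1 and Uqcr11 to Uqcrh, with Cox4i2 and Cox6a2, which have few counts, farthest from it.

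The fold changes varied with transcript length. The subunit transcripts are short, with a median deposited length of 656 bases against 2198 for all tested genes. Each library's log2 CPM had its own slope on transcript length, 0.13 log2 units per doubling in HI4, -0.084 in LI1 and -0.029 to 0.0090 in the other 6. Among all tested genes the median fold change was -0.17 for lengths up to 600 bases, -0.087 from 601 to 1200, -0.039 from 1201 to 2400 and 0.043 above. In the shortest class 19 of 20 subunits were negative, with a median of -0.18. The 244 tested genes of that class that are no members were negative in 203 (83.2%), with a median of -0.16, and the 182 outside complex I and ribosomal protein genes too were negative in 142 (78.0%), with a median of -0.14. From 601 to 1200 bases 12 of 12 subunits were negative, with a median of -0.17, against 66.5% and -0.085 for the 1420 other genes. From 1201 to 2400 bases 9 of 10 were, with a median of -0.071, against 58.7% and -0.038 for 4739 others.

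**Figure D4:**
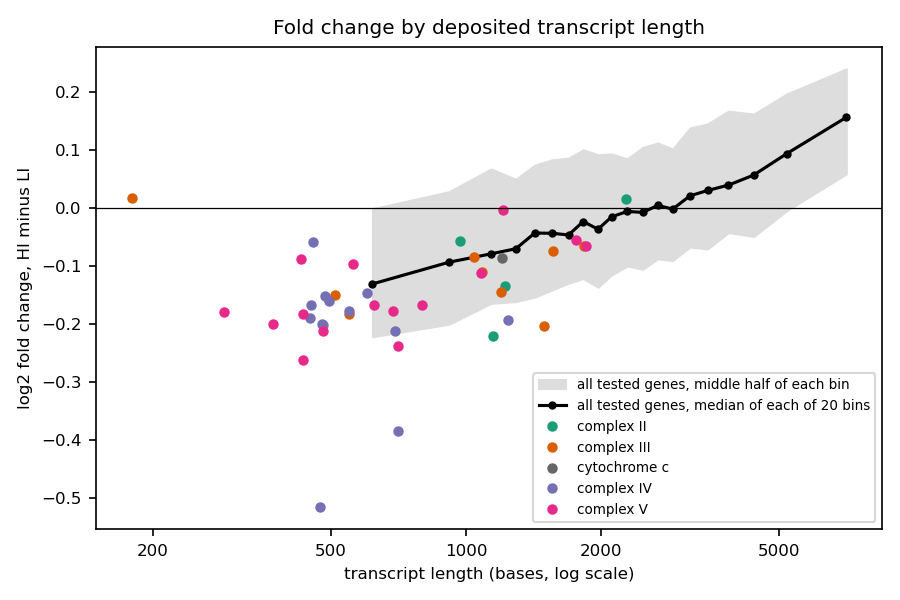
Log2 fold change, HI minus LI (y axis), against deposited transcript length (x axis, log scale) for the 42 genes (coloured points) and all 11631 tested genes (black line, medians of 20 equal bins; grey, the middle 50% of each bin). The medians of all genes tend to rise with length, and most of the shortest subunits lie left of the first bin and lower than its median.

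With each library's length trend removed by a lowess of log2 CPM on log2 length, the same test gave a median of -0.032 over the 42 genes, with 28 negative and 14 positive, against 50.9% negative and -0.0031 over all genes. By complex the median went to -0.026 in II, -0.034 in III, -0.015 for cytochrome c, -0.030 in IV and -0.043 in V. Negative were 2 of 4 genes in II, 6 of 9 in III, 1 of 1 for cytochrome c, 9 of 13 in IV and 10 of 15 in V. Atp5h went to -0.080 ± 0.13, Cox7a2 to -0.030 ± 0.14 and Atp5j2 to 9.6e-05 ± 0.10. Uqcrq, Cox7a2l and Sdhc, which are longer, moved less, with Uqcrq at -0.16 ± 0.12, Cox7a2l at -0.13 ± 0.11 and Sdhc at -0.16 ± 0.16. No member had an unadjusted p under 0.05 after this step, where 0.808% of genes did with lower and 2.76% with higher values, and the smallest was 0.199 (Uqcrq, by edgeR). HI4 stayed the lowest library of complexes II, III and V, at -0.18, -0.14 and -0.24, and of the c-ring genes at -0.76, against -1.02 before. In complex IV HI2 was then lowest at -0.10, with HI4 at -0.086. For the stalk genes HI4 went from lowest at -0.13 to 0.13, below only LI3 at 0.15. Lengths were the same in all libraries for every subunit but Uqcr11 and Cox6a2, and effective lengths were 57.49 bases shorter than the transcript, which leaves 122.5 bases in Uqcr10.

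**Figure D5:**
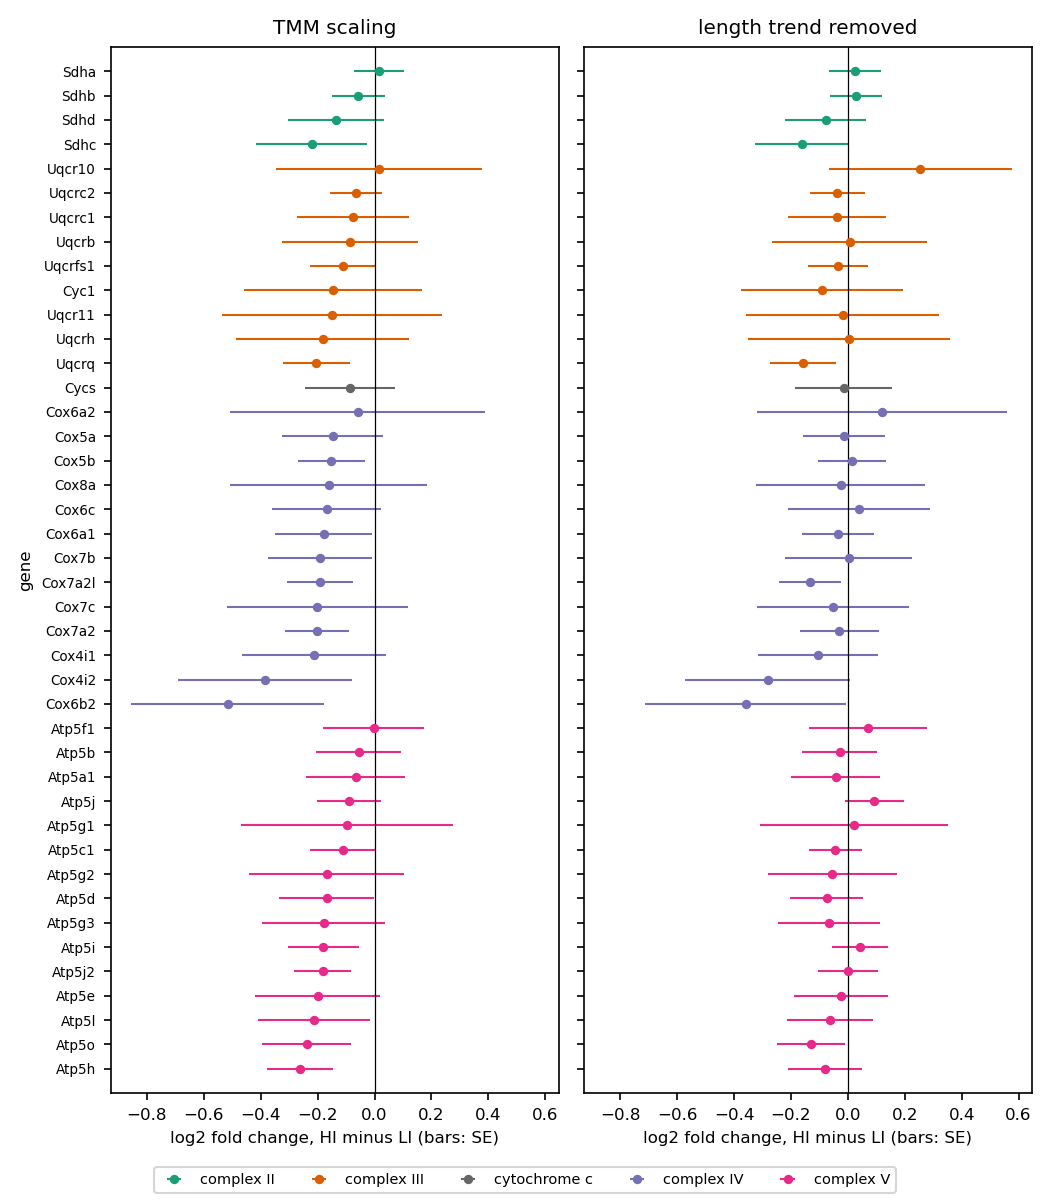
Log2 fold change, HI minus LI, with SE (x axes) for the 42 genes (y axis, by complex) under TMM scaling (left) and with the length trend removed (right). Left of zero lie 40 of 42 genes on the left and 28 of 42 on the right.

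Related genes of the pathway were read from the fit without a covariate, with 0 called in every list. Of 33 complex I subunits tested 32 were negative, with a median of -0.13, and 21 with a median of -0.025 after the length trend was removed. HI4 and LI3 were the lowest 2 libraries in 14 of the 33 and the highest 2 in 6. Assembly factors, which put the complexes together without staying in them, were negative in 1 of 1 for complex II (Sdhaf2), 2 of 5 for complex III and 10 of 16 for complex IV, with medians of -0.10, 0.022 and -0.037. With the length trend removed 1, 2 and 9 of them were negative, with medians of -0.067, 0.058 and -0.042. A list of assembly and regulation for complex V, which also holds the inhibitor Atpif1 and the membrane subunit gene Usmg5, was negative in 6 of 6, with a median of -0.091, and in 4 of 6 with the length trend removed. Surf1, a complex IV assembly factor, differed by -0.32 ± 0.18, and Atpif1 by -0.10 ± 0.22. Enzymes of the citric acid cycle and pyruvate dehydrogenase, whose transcripts are longer, were negative in 12 of 17, with a median of -0.064, and glycolytic genes in 12 of 15, with a median of -0.048. With the length trend removed they were negative in 12 of 17 and 11 of 15, with medians of -0.035 and -0.019. The median of the 42 genes was then -0.032. Regulators of mitochondrial biogenesis were split 6 to 6. Among them the coactivator gene Ppargc1b averaged 16.96 CPM (SD 1.00) over the HI libraries and 13.00 CPM (SD 2.36) over the LI libraries, with all HI above all LI. The related coactivator Pprc1 also had all HI above all LI, making 2 of 12 against 2.31% of tested genes. Their fold changes were 0.38 ± 0.16 and 0.11 ± 0.10 (0.36 and 0.028 with the length trend removed), and neither passed the adjusted threshold. Ppargc1a had the largest fold change of the 12, 0.44 ± 0.33, but its HI and LI libraries overlapped. Nrf1, Gabpa and Tfam differed by 0.21 ± 0.17, -0.014 ± 0.25 and 0.16 ± 0.12, and Polrmt, Tfb1m and Gabpb1 by -0.23 ± 0.23, -0.22 ± 0.21 and -0.18 ± 0.20.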

How the data were processed

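The members and lists were chosen with earlier results of these data known. Per the labels' protocols, RNA was extracted with TRIzol, cleaned on RNeasy columns and made into Illumina libraries. The submitters' processing notes name Bowtie2 2.1.0. For the quantifier, build, annotation and strand setting the sources are silent (not given in the sources used here). Reads of pseudogene copies may be split or merged (2 members had fractional counts). The tables hold, per the file headers, deposited expected counts (estimated reads per gene), TPM (scaled by the authors to a fixed total, ribosomal RNA included) and lengths.

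Expected counts were rounded, filtered with filterByExpr (minimum count 10, total 15) and TMM-scaled, and HI was compared with LI by edgeR 4.0.16 in R 4.3.3 (quasi-likelihood test, Benjamini-Hochberg threshold 0.1, the level in the design text). SE is the absolute log2 fold change over the root of F, and a prior count of 2 entered log2 CPM. The length trend was a lowess with span 0.3, entered as an offset. No 2 libraries of a group agreed within sampling noise. Named genes were, per complex, the 3 smallest p, the highest TPM, those opposite to the complex median, separated groups, isoform sets and rows that are no subunit.

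Alternatives were DESeq2 1.42.0, Fisher's exact test on summed counts (named in the design text), other filters, limma 3.58.1 on log2 TPM + 1, the length trend, ribosomal RNA share as a covariate, a replicate block and leaving out libraries. RefSeq accessions matched a current symbol for 43 of the 44 members. The length classes, the comparison of HI4 with LI3 and its ratios, the promoters shown and the fits without HI4 and LI3 together, or with the covariate and without either, the log2 coding of the covariate and DESeq2 with no low-count filter were chosen after seeing the data.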

Additional observations from a re-analysis of the deposited data

Results flagged for a closer look

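Chance puts about 5% of 4-library groups past the outlier limit used here (a gap to the nearest library that is most of the group's range), and 3 of the 98 groups examined were past it. Atp5c1, the gamma subunit of the ATP synthase, stood at 136 CPM in HI4, far below the other HI libraries at 171 to 174 CPM. The complex V score was -0.49 in HI4, against 0.015 to 0.090 in HI1 to HI3. Uqcrc2, a core protein of complex III, was at 203 CPM in HI1, below 212 to 214 CPM in the other HI libraries.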

How the results depend on the processing

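The count of genes past the threshold was 0 in the main test and 0 by edgeR and limma in the alternatives except those with log2 of the ribosomal RNA share as covariate. It was 38 by DESeq2 (30 with no low-count filter) and 6596 by Fisher's exact test on summed counts. With the log2 covariate, added after seeing the data, it was 440, with 8 members, and 216, with 0 members, when the length trend was also removed. Without 1 library that fit called 996 genes and 13 members (HI1), 73 and 0 (HI2), 37 and 0 (HI3), 0 and 0 (HI4), 20 and 0 (LI1), 320 and 4 (LI2), 0 and 0 (LI3) and 2 and 0 (LI4). Of the members, 40 were called by that Fisher test, all lower in HI, where 44% of all genes were called lower, and 0 by the alternatives not named here. The complex medians stayed negative in all settings except for cytochrome c, a single gene. They were larger with the linear covariate (-0.16 in II, -0.19 in III, -0.24 in IV and -0.24 in V) and by Fisher's test (-0.20, -0.22, -0.29 and -0.27), where the median of all genes was -0.11. With the length trend removed they were -0.026, -0.034, -0.030 and -0.043. The cytochrome c value was 0.032 when ribosomal RNA share entered as covariate, 0.024 when HI4 was also left out and 0.046 when LI3 was. Leaving out 1 library gave complex II -0.14 to -0.032, complex III -0.17 to -0.045, complex IV -0.24 to -0.13, complex V -0.22 to -0.044 and cytochrome c -0.19 to 0.028. Fold changes of named members took the other sign in these settings. By Fisher's test, with its median of -0.11 over all genes, they were -0.082 for Sdha and -0.12 for Uqcr10. With the length trend removed they were 0.12 for Cox6a2, 0.022 for Atp5g1, 0.027 for Sdhb, 9.6e-05 for Atp5j2, 0.0024 for Uqcrh, 0.0058 for Uqcrb, 0.039 for Cox6c, 0.0024 for Cox7b and 0.072 for Atp5f1. By limma on log2 TPM + 1 they were 0.066 for Cox6a2 and -0.081 for Uqcr10. With the ribosomal RNA covariate they were 0.11 for Cox6a2, -0.39 for Uqcr10, 0.032 for Cycs, 0.040 for Uqcrh, 0.097 for Uqcrb and 0.13 for Atp5f1. With that covariate and without HI4 (added after seeing the data, as are the next 3) they were 0.28 for Cox6a2, 0.044 for Atp5g2, -0.0062 for Sdha, -0.20 for Uqcr10 and 0.024 for Cycs. With it and without LI3 they were 0.16 for Cox6a2, -0.46 for Uqcr10, 0.046 for Cycs, 0.19 for Uqcrh, 0.21 for Uqcrb, 0.035 for Cox6c, 0.022 for Cox7b and 0.20 for Atp5f1. With the log2 covariate they were 0.0038 for Cox6a2, -0.31 for Uqcr10, 0.014 for Uqcrh, 0.059 for Uqcrb and 0.095 for Atp5f1. Without HI4 and LI3 together they were 0.057 for Cox6a2 and -0.0019 for Sdha. Leaving out 1 library, the range was -0.32 to 0.23 for Uqcr10, -0.18 to 0.11 for Atp5f1, -0.34 to 0.28 for Cox6a2, -0.19 to 0.028 for Cycs, -0.30 to 0.088 for Uqcrb, -0.17 to 0.065 for Atp5s, -0.35 to 0.078 for Cox8a, -0.29 to 0.17 for Atp5g1, -0.32 to 0.045 for Atp5g2, -0.013 to 0.033 for Sdha, -0.36 to 0.11 for Uqcr11, -0.14 to 0.043 for Atp5b, -0.33 to 0.068 for Cyc1, -0.38 to 0.018 for Cox7c, -0.18 to 0.062 for Uqcrc1 and -0.47 to 0.042 for Uqcrh. Correlation cannot show whether the title numbers pair the libraries. Deviations of same-numbered libraries correlated at 0.22, 0.54, -0.053 and 0.059. HI2 correlated best with LI2 (0.54) and HI4 with LI3 (0.78). With the replicate block 0 genes passed, 41 of 42 subunits were negative with a median of -0.18, and Uqcr10 was at -0.050. With the replicate block and the length trend removed 34 were negative, with a median of -0.034, and 0.15 for Cox6a2, 0.027 for Sdhb and 0.046 for Atp5f1 were positive. Depth limits Cox4i2, Cox6a2 and Cox6b2, with 4 to 29 counts per library.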
